A study of Mus musculus with 25 samples.

Results

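Detoxification genes were followed in mouse Ep5 (EpRas) cells, mammary epithelial tumour cells transformed by oncogenic Ras, after contact with platelets. The list held 38 symbols: aldehyde dehydrogenases, glutathione transferases, targets of the transcription factor NRF2, the aryl hydrocarbon receptor (AHR) axis, and regulators of NRF2. Members were taken by symbol, through probe sets that carry 1 gene symbol, with the probe set of the highest mean for each gene. Of the 38, 34 were measured on both array types, 3 (Gstp1, Gclm and Txnrd1) on the gene arrays only, and 1 (G6pdx) was not analysed here. The exon arrays held 18997 genes in all and the gene arrays 19938.

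All samples were the same cell line, which the labels place on a C57BL/6 background, grown in serum-containing medium. On the exon arrays, 5 samples were sub-confluent cells alone, 5 were cells kept for 24 h with about 1000 wild-type C57BL/6 platelets per cell, and 3 were cells joined with platelets at that ratio only when RNA was about to be isolated (mixed at lysis). On the gene arrays, 3 samples each were cells alone, cells with platelets for 24 h at the same ratio, cells with the resuspended pellet of thrombin-treated platelets for 24 h, and cells with the supernatant of that spin (releasate) for 24 h. The line is 1 transformed line in culture, and no sample used here is labelled as cells with thrombin and no platelets. The sample records used here give no culture time for cells alone or for cells mixed at lysis.

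Aldehyde dehydrogenases oxidise reactive aldehydes to acids, and glutathione transferases join electrophiles to glutathione. NRF2, encoded by Nfe2l2, is held in the cytoplasm by KEAP1 and, once freed by oxidants or electrophiles, binds antioxidant response elements (ARE) beside genes for glutathione synthesis, NADPH supply and quinone reduction, while BACH1 represses some of the same genes. AHR binds planar aromatic ligands and activates genes through xenobiotic response elements (XRE). Cyp1a1, Cyp1b1, Ahrr and Tiparp are its usual readouts, and Nqo1 and Aldh3a1 are textbook members of the AHR gene battery as well.

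Promoter windows from RefSeq (GRCm38.p6, 250 bases before to 50 after the gene start) were found for 30 of the 38 members, in 37 windows. Aldh3a1, Aldh1a3, Aldh2, Gsta4, Gclc, Gsr, Hmox1 and Ahr had no window and were not searched. The ARE core TGACNNNGC, searched on both strands, was present for 9 members (Gclm, Txnrd1, Srxn1, Prdx1, Pgd, Me1, G6pdx, Mgst1 and Nfe2l2). It was in 9 of the 37 member windows and in 12.4% of all 32851 windows. The XRE core TNGCGTG, searched on both strands, was present for 3 members (Ahrr, Aldh3a2 and Pgd). It was in 3 of the 37 member windows and in 5.07% of all windows. No member window held both. The windows of Srxn1 and Prdx1 are shown as NRF2 targets with a match that did not pass any comparison below, those of Gstt1 and Ephx1 as genes that fell both against cells alone and against the mix, with no match, and that of Ahrr as an AHR target with a match. Capitals mark the matched letters, and each window is written 5′ to 3′ on the strand of the gene.
Srxn1, chr2:152105274-152105573, plus strand: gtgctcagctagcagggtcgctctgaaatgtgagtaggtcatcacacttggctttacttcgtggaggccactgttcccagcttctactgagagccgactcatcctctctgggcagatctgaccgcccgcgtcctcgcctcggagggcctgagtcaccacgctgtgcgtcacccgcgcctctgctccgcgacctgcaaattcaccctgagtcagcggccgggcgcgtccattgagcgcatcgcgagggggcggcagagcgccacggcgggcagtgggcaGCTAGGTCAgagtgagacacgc
Prdx1, chr4:116685349-116685648, plus strand: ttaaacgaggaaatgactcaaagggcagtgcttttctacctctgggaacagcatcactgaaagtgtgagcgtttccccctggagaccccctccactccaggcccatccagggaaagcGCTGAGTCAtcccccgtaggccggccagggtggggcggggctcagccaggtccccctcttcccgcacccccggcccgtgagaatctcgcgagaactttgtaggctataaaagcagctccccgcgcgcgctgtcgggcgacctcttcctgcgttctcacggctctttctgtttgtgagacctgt
Gstt1, chr10:75797682-75797981, minus strand: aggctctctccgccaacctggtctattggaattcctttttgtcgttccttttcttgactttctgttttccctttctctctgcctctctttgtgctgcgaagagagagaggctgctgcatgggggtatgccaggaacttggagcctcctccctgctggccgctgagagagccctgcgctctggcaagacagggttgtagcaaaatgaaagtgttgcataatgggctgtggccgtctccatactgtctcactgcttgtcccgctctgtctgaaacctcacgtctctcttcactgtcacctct
Ephx1, chr1:181017520-181017819, minus strand: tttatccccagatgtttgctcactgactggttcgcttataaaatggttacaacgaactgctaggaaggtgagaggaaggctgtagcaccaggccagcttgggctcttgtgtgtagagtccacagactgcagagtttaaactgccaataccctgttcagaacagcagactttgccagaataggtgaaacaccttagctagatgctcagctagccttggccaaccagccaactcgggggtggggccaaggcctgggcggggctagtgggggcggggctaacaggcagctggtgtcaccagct
Ahrr, chr13:74292282-74292581, minus strand: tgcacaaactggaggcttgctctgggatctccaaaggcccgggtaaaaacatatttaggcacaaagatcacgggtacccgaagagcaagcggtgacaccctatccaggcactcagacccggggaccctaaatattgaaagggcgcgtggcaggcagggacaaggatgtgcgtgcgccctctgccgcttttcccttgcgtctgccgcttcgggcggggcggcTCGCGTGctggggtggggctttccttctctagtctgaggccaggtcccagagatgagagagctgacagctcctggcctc
A match is a run of letters and not a shown binding site, and its absence refers to this window only. These windows are examples, and whether a match goes with a change in value was not tested. Counted from the gene start, the leftmost matched base was at 29 in Srxn1, at −133 in Prdx1 and at −29 in Ahrr.

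All values below are log2 probe set values, and differences are on the same log2 scale. Array medians ran from 3.62 to 3.90 on the exon arrays and from 5.56 to 5.63 on the gene arrays, and the correlation between any 2 arrays of a table was at least 0.929 and 0.984. The exon array of cells alone numbered 5 had the highest median (3.90). Mammary epithelial markers, 9 of 10 measured, had list means per exon array of 9.82 to 10.03 alone, 9.67 to 9.94 with platelets and 9.83 to 9.99 mixed at lysis, with Cldn4 higher (0.45 ± 0.09) and Elf3 lower (−1.40 ± 0.26) with platelets against alone. The 6 fibroblast markers had means of 3.65 to 3.93, 3.79 to 4.25 and 3.72 to 3.88 in the same order, and 0 passed by limma with platelets against alone, with 2 at an unadjusted p under 0.05. The part of these lists in the values below was not tested. The platelet list, 12 of 15 markers measured, had means per exon array of 3.83 to 4.14 alone, 5.08 to 6.89 with platelets and 6.00 to 6.31 mixed at lysis. It was lower in the platelet cultures numbered 4 and 5 (5.08 and 5.66) than in those numbered 1 to 3 (6.46 to 6.89). On the gene arrays the same list ran from 5.64 to 5.79 alone, 6.11 to 6.21 with platelets, 6.04 to 6.13 with the pellet and 5.56 to 5.69 with the releasate. In these bulk samples, fewer cells of a type and less RNA per cell cannot be told apart.

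After a day with platelets, 8 of the 34 detoxification genes were lower on the exon arrays, 1 was higher and 25 did not pass (limma, Benjamini-Hochberg adjusted p under 0.05 over all genes). The lower genes were the aldehyde dehydrogenases Aldh3a1, Aldh3b1 and Aldh2, the transferases Gstt1, Gstm1 and Gsta4, the epoxide hydrolase Ephx1 and the quinone reductase Nqo1. The higher gene was the haem oxygenase Hmox1. These 9 make up 26.5% of the members, where 4.55% of all genes passed (2.47% lower and 2.07% higher). Of the 34 differences 28 were below 0, with a median of −0.13 beside 0.00 over all genes.

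**Figure D1:**
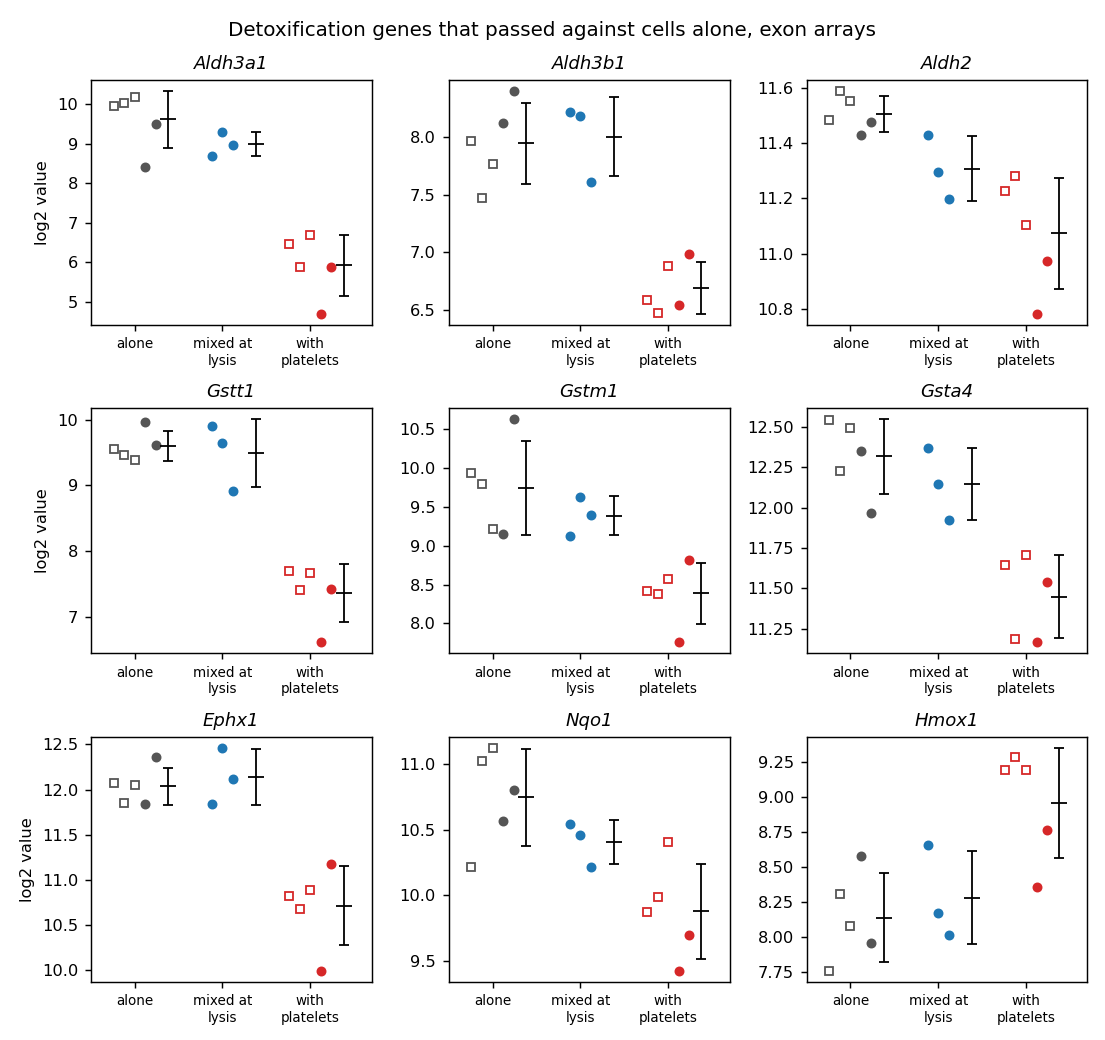
Log2 values of the 9 detoxification genes that passed against cells alone, by exon array. Open squares are arrays numbered 1 to 3, filled circles those numbered 4 to 6, and the bars give mean ± SD for n = 5 alone, 3 mixed at lysis and 5 with platelets. For Aldh3a1 the platelet arrays lie at 6.69 or below and all others at 8.42 or above, while for Nqo1 and Hmox1 the groups overlap.

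Among aldehyde dehydrogenases, 3 of 7 fell and none rose. Aldh3a1, which oxidises aromatic and medium-chain aldehydes, read 9.96, 10.04, 10.18, 8.42 and 9.49 in cells alone (numbers 1 to 5) and 6.46, 5.89, 6.69, 4.70 and 5.89 with platelets. Every platelet array lay below every array of cells alone, and number 4 was the lowest of both groups. The difference was −3.69 ± 0.39 (SE, n = 5 against 5; adjusted p = 0.000123), 12.9-fold lower. Aldh3b1, which acts on fatty aldehydes at membranes, read 7.97, 7.47, 7.77, 8.12 and 8.40 alone and 6.59, 6.47, 6.88, 6.54 and 6.98 with platelets, again without overlap. It fell by 1.25 ± 0.18 (adjusted p = 0.00114). Aldh2, the mitochondrial enzyme that clears acetaldehyde, was 11.43 to 11.59 alone and 10.78 to 11.28 with platelets, a small fall of 0.43 ± 0.09 that was larger than the spread (adjusted p = 0.0177; 0.0951 with equal array medians).

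The remaining 4 aldehyde dehydrogenases did not pass. Aldh3a2, the fatty aldehyde dehydrogenase of the endoplasmic reticulum, differed by −0.41 ± 0.15 (adjusted p = 0.212). The retinal dehydrogenases Aldh1a1 and Aldh1a3 and the related Aldh1a7 had group means between 3.20 and 3.34, below the median of all exon probe sets (3.70), and differences between −0.03 and 0.02. No probe set was tested against background, and a change at such low values may not be detectable.

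Of 4 glutathione transferases 3 fell. Gstt1, a theta-class enzyme, read 9.56, 9.46, 9.38, 9.97 and 9.62 alone and 7.69, 7.40, 7.67, 6.61 and 7.42 with platelets. The groups were far apart, and platelet culture 4 lay lowest. The difference was −2.24 ± 0.23 (adjusted p = 8.86e-05), 4.71-fold lower. Gstm1, a mu-class enzyme, read 9.94, 9.79, 9.22, 9.15 and 10.63 alone and 8.41, 8.38, 8.57, 7.76 and 8.81 with platelets, with no overlap but a wide spread alone. It fell by 1.36 ± 0.27 (adjusted p = 0.0111). Gsta4, which conjugates the lipid peroxidation product 4-hydroxynonenal, was 11.97 to 12.54 alone and 11.17 to 11.71 with platelets and fell by 0.87 ± 0.14 (adjusted p = 0.00326). The microsomal enzyme Mgst1 differed by −0.95 ± 0.30 without passing (adjusted p = 0.119). Transferase genes of a class are alike in sequence, and binding of a relative's RNA to these probe sets was not tested.

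Ephx1, which opens epoxides to diols, read 12.07, 11.85, 12.05, 11.84 and 12.36 alone and 10.82, 10.68, 10.89, 9.99 and 11.17 with platelets. No platelet array reached any array of cells alone. Ephx1 fell by 1.32 ± 0.20 (adjusted p = 0.00155), a 2.50-fold difference. Nqo1, which reduces quinones by 2 electrons, read 10.21, 11.03, 11.13, 10.56 and 10.80 alone and 9.87, 9.99, 10.40, 9.42 and 9.70 with platelets. Alone 1 lay within the range of the platelet cultures. Nqo1 fell by 0.87 ± 0.20 (adjusted p = 0.0228), and its second, lower probe set differed by −1.42. The Nqo1 call was lost in 6 of the 10 refits with a single array of the 2 groups removed, with adjusted p = 0.0502 to 0.0642 (without alone 2, 3 or 5, or platelets 1, 4 or 5).

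Hmox1, which breaks down haem, was the 1 member that rose. It read 7.76, 8.31, 8.08, 8.58 and 7.96 alone and 9.19, 9.28, 9.19, 8.36 and 8.77 with platelets, so platelets 4 lay inside the range of cells alone. The difference was 0.82 ± 0.20 (adjusted p = 0.0402). That call was lost in 8 of 10 such refits (adjusted p = 0.0558 to 0.108, all but alone 4 and platelets 4) and with equal array medians (0.0561). Leukocyte markers, 12 of 15 measured, had list means of 3.96 to 4.18 alone, 4.30 to 4.61 with platelets and 4.41 to 4.45 mixed at lysis. With platelets against alone, 2 of the 12 were higher, and the differences of the 12 ran from −0.32 to 2.33. Of the 12 differences 2 were below 0, and the median was 0.08. The pan-leukocyte marker Ptprc, 1 of the 12, was at 3.06 in both groups, below the median of all exon probe sets (3.70). A change at such a low value may not be detectable. Between mix and alone 0 of the 12 passed by limma, with differences from −0.15 to 3.27. The part of the leukocyte markers in the Hmox1 value was not tested.

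The other NRF2 targets did not pass. Of 3 genes for glutathione supply 0 passed by limma, with 2 at an unadjusted p under 0.05. Gclc, the catalytic subunit of the first step of glutathione synthesis, read 8.69 to 9.40 alone and 8.95 to 9.25 with platelets and differed by 0.00 ± 0.12 (95% interval −0.27 to 0.26). The glutathione reductase Gsr differed by −0.34 ± 0.10 (adjusted p = 0.0801) and the cystine carrier Slc7a11 by 0.65 ± 0.24 (adjusted p = 0.208). Of 4 genes for NADPH supply (Pgd, Taldo1, Tkt and Me1) 0 passed, with differences from −0.40 to 0.09 and 1 at an unadjusted p under 0.05. The other members for quinones, haem and peroxides, namely Srxn1, Prdx1, Osgin1, Cbr1 and Cat, also did not pass, with differences from −0.33 for Osgin1 to −0.02 for Prdx1.

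**Figure D2:**
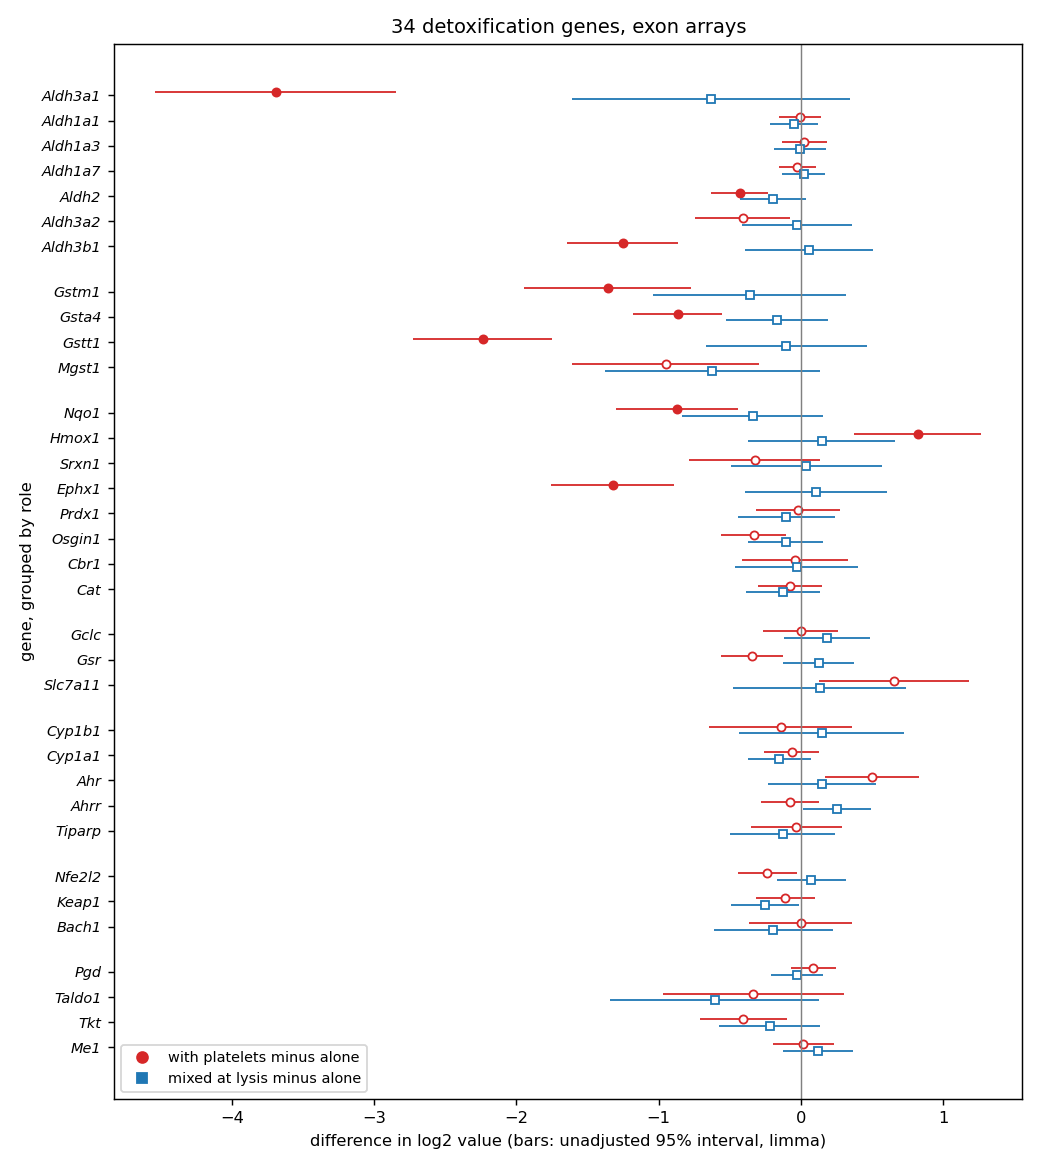
Differences in log2 value from cells alone for the 34 members on the exon arrays, grouped by role, with unadjusted 95% intervals. Red circles are cells with platelets and blue squares cells mixed with platelets at lysis, and a filled symbol passed at an adjusted p under 0.05. The 9 filled symbols are all of platelet cultures, and the largest difference is that of Aldh3a1 (−3.69).

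Of the 5 genes listed here as the AHR axis, 0 passed by limma, and 1 had an unadjusted p under 0.05. Aldh3a1 and Nqo1, which belong to the AHR battery as well, are listed under other headings and were lower (−3.69 and −0.87). The receptor gene Ahr was 5.95 to 6.58 alone and 6.30 to 7.09 with platelets, a difference of 0.50 ± 0.15 that did not pass (adjusted p = 0.098). It passed after quantile normalization applied again (adjusted p = 0.00493), with array weights (0.00217), within numbers 1 to 3 (0.0308) and without platelets 4 (0.0146). Cyp1b1, a cytochrome P450 with a high signal in these cells (10.01 ± 0.24 SD alone), differed by −0.14 ± 0.23 (95% interval −0.64 to 0.36). Tiparp, an ADP-ribosyltransferase that represses AHR, differed by −0.03 ± 0.15 (95% interval −0.35 to 0.29). The P450 Cyp1a1 (3.28 ± 0.18 alone) and the AHR repressor Ahrr (3.49 ± 0.16) lay under the median of all probe sets in cells alone. Their differences were −0.07 and −0.08, and a fall at such low values may not be detectable.

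Of the 3 regulators of NRF2, 0 passed by limma, with 1 at an unadjusted p under 0.05. Nfe2l2 read 9.03, 8.67, 8.52, 8.53 and 8.81 alone and 8.53, 8.33, 8.58, 8.47 and 8.45 with platelets, and the groups overlapped. Its difference was −0.24 ± 0.10 (adjusted p = 0.275). Keap1 differed by −0.11 ± 0.10 (adjusted p = 0.775) and Bach1 by 0.00 ± 0.17 (95% interval −0.37 to 0.36). These are transcript levels, and NRF2 and AHR are also controlled at the protein, which the arrays do not measure.

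**Figure D3:**
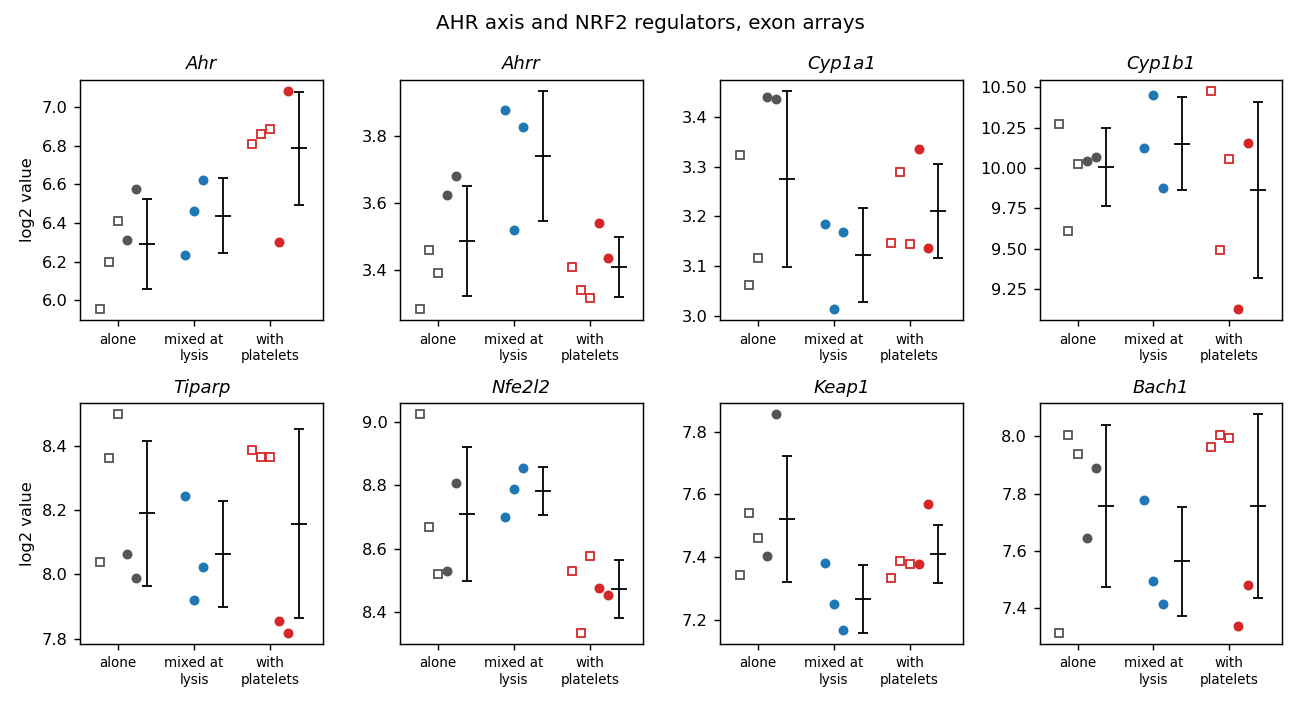
Log2 values of the AHR axis and of the NRF2 regulators by exon array, with open squares for numbers 1 to 3, filled circles for numbers 4 to 6, and bars for mean ± SD. None passed between cells with platelets and cells alone, and Ahr has the largest difference (0.50).

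Cells mixed with platelets at lysis contain platelet RNA but had no day of contact, and the comparison asks how added RNA alone reads on these genes. None of the 34 members passed against cells alone by limma (0.0474% of all genes did), with 2 at an unadjusted p under 0.05 (Ahrr and Keap1). Aldh3a1 read 8.68, 9.30 and 8.98 in the mix, a difference of −0.63 ± 0.45 from cells alone (adjusted p = 0.945). The mix arrays carry numbers 4 to 6 only. For Aldh3a1, cells alone read 8.42 and 9.49 at numbers 4 and 5 and 9.96 to 10.18 at numbers 1 to 3. The Aldh3a1 difference between mix and alone changed sign in 3 of 9 alternative fits. Gstt1 read 9.91, 9.65 and 8.92 in the mix, a difference of −0.10 ± 0.26 from cells alone (adjusted p = 0.969). For Ephx1 and Aldh3b1 the mix was 0.10 ± 0.23 and 0.06 ± 0.21 above cells alone. The mean of the platelet list was 6.12 ± 0.17 (SD, n = 3) in the mix and 6.11 ± 0.73 (n = 5) in the cultures. By array they did not match. Cultures 1 to 3 (6.46 to 6.89) lay above every mix array (6.00 to 6.31), and cultures 4 and 5 (5.08 and 5.66) lay below.

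Set against this mix, platelet cultures were lower in 6 of 34 members and higher in 0, where 3.68% of all genes passed (2.14% lower and 1.54% higher). The difference was −3.06 ± 0.45 for Aldh3a1 (adjusted p = 0.00193), −2.13 ± 0.26 for Gstt1 (0.000568), −1.43 ± 0.23 for Ephx1 (0.00342) and −1.31 ± 0.21 for Aldh3b1 (0.00318). Gsta4 fell by 0.70 ± 0.17 (adjusted p = 0.0357). Gsr, named here after its values were seen, read 11.31, 11.42 and 11.19 in the mix and 10.77 to 10.97 with platelets and fell by 0.47 ± 0.11 (adjusted p = 0.0422). The calls of Gsta4 and Gsr were lost in 5 and 7 of the 8 refits with a single array of these groups removed (adjusted p up to 0.137 and 0.202). The exceptions, where the call held, were platelets 1, 3 and 5 for Gsta4 and platelets 5 for Gsr. Gstm1 (−0.998 ± 0.312, adjusted p = 0.125), Nqo1 (−0.53 ± 0.23, 0.31), Aldh2 (−0.23 ± 0.11, 0.36) and Hmox1 (0.68 ± 0.24, 0.178) did not pass against the mix.

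The platelet list was lower in platelet cultures 4 and 5, as given above, so differences were also taken within numbers 1 to 3 and within 4 and 5. The labels do not say what the numbers mark. The difference of Aldh3a1 was −3.71 within numbers 1 to 3 and −3.66 within 4 and 5. Gstt1 differed by −1.88 and −2.77, Ephx1 by −1.19 and −1.52, Gstm1 by −1.20 and −1.60, and Aldh3b1 by −1.09 and −1.50. Gsta4 differed by −0.91 and −0.81, Nqo1 by −0.70 and −1.12, Aldh2 by −0.34 and −0.57, and Hmox1 by 1.17 and 0.29. All 9 kept their direction in both sets, but they were picked by the fit of these same arrays, so this is no separate check. The test of the difference between the sets passed for 0 of 34 members and 0 of all genes by limma, with 2 members (Gstt1 and Hmox1) at an unadjusted p under 0.05. With numbers 4 and above fitted alone (n = 2 alone, 2 with platelets and 3 mixed at lysis), 0 members passed against alone, where 0.221% of all genes passed, and 1, Aldh3a1, against the mix, where 0.368% passed.

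On the gene arrays 0 of the 34 members passed in the limma fit without pairing. With platelets 0.667% of all genes passed against alone (0.411% higher), with the pellet 0.416% and with the releasate 0%. At an unadjusted p under 0.05 there were 8, 11 and 0 members. The share of all genes at that unadjusted cutoff was not computed, so these counts have no background. The median of the 34 differences was −0.06 with platelets, −0.05 with the pellet and 0.00 with the releasate. These comparisons share the 3 arrays of cells alone, and the gene arrays were labelled with another kit, so sizes are not compared between array types. No mix at lysis was run on the gene arrays, and the part of platelet RNA in these values was not tested.

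Gstt1 had the largest difference of the members with whole platelets and with the pellet. In cells alone it read 8.81, 8.81 and 8.47 (numbers 7 to 9), with platelets 7.96, 7.79 and 7.42, with the pellet 7.42, 8.05 and 7.37 and with the releasate 8.43, 8.56 and 7.78. Platelet and pellet arrays all lay below the arrays of cells alone, and the releasate arrays overlapped them, although each lay below the same-numbered array of cells alone. The differences were −0.98 ± 0.23 (adjusted p = 0.0974), −1.08 ± 0.23 (0.0787) and −0.44 ± 0.23 (1).

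Aldh3a1 read 6.05, 6.45 and 5.67 alone, 5.55, 5.31 and 5.07 with platelets, 5.25, 5.54 and 5.13 with the pellet and 5.81, 6.35 and 5.48 with the releasate. In each numbered set the platelet, pellet and releasate arrays were below the array of cells alone, the releasate by the least. The differences were −0.74 ± 0.23 (adjusted p = 0.248), −0.75 ± 0.23 (0.265) and −0.18 ± 0.23 (1). The platelet and pellet means of Aldh3a1 (5.31 and 5.30) lay under the median of all gene-array probe sets (5.59).

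Ephx1 read 11.41, 11.46 and 11.26 alone, 11.03, 10.65 and 10.43 with platelets, 10.50, 10.84 and 10.34 with the pellet and 11.26, 11.47 and 10.89 with the releasate. Its differences were −0.67 ± 0.18 (adjusted p = 0.146), −0.82 ± 0.18 (0.0878) and −0.17 ± 0.18 (1). Gstm1 differed by −0.71 ± 0.26 with platelets (adjusted p = 0.348), −0.83 ± 0.26 with the pellet (0.265) and −0.15 ± 0.26 with the releasate. Gsta4 differed by −0.35 ± 0.13, −0.41 ± 0.13 and 0.06 ± 0.13, and Aldh3b1 by −0.19 ± 0.14, −0.49 ± 0.14 and −0.04 ± 0.14, in the same order.

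**Figure D4:**
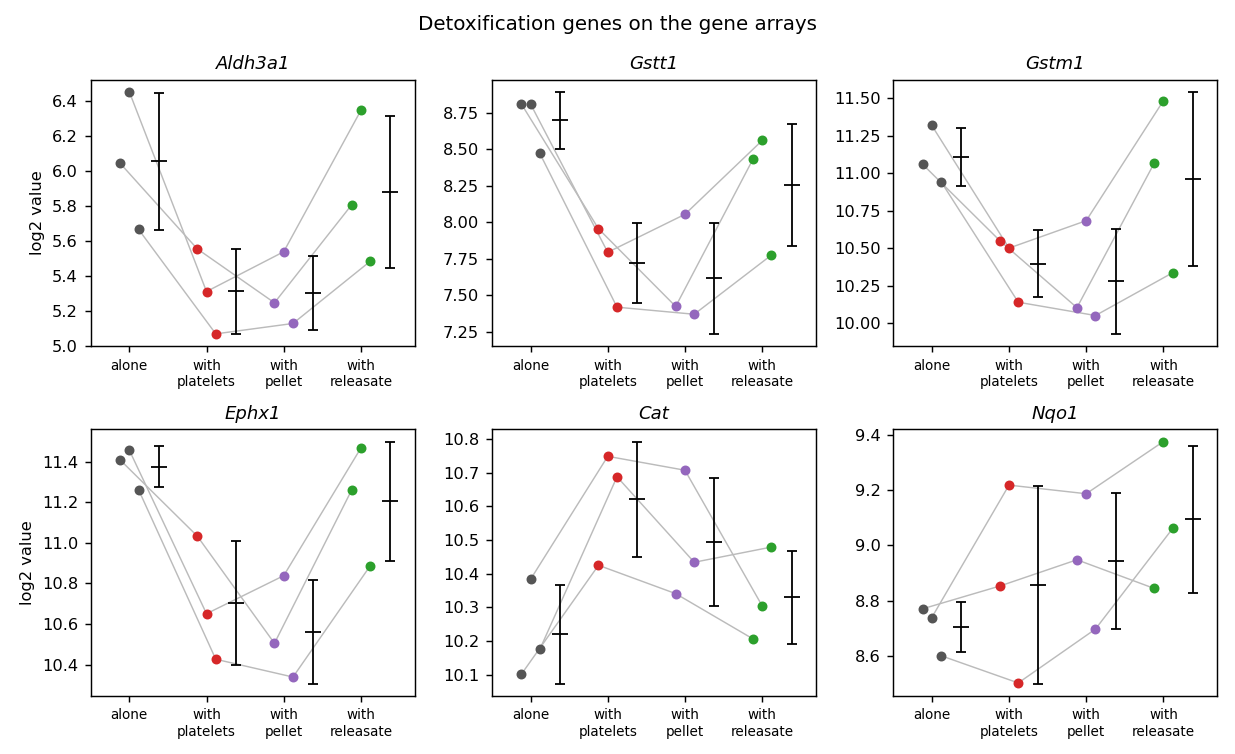
Log2 values of 6 members by gene array, with grey lines joining arrays of the same number (7, 8 or 9) and bars for mean ± SD (n = 3). In Aldh3a1, Gstt1, Gstm1 and Ephx1 each line drops from alone to platelets, while Cat goes up and Nqo1 does not go 1 way.

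Same-numbered gene arrays deviated together between alone and platelets (r over genes of 0.287 to 0.442 in the 3 pairs). A fit with the number as a replicate block was therefore made as well. It used all 12 gene arrays, so the block and the spread were shared by all their groups. Some of these did not meet the criterion for pairing (all r over 0.1). For pellet against alone r was −0.0374 to 0.339, and for platelets against pellet −0.149 to 0.574. The sample titles also carry a running number of unstated meaning. It sets platelets 8, pellet 8 and releasate 8 apart from all other gene arrays, including alone 8. Pair 8 thus spans both runs. A fit without pairing that left out the set-apart arrays gave 0 members with platelets or the pellet. Of all genes 0.00502% and 0.0201% passed, in place of 0.667% and 0.416%. The fit with them also gave 0, so this cannot show a loss of calls. The block fit was not repeated without them. In the block fit 5 of 34 members passed, 4 lower and 1 higher, where 2.28% of all genes passed (1.1% lower and 1.17% higher). The difference was −0.98 ± 0.14 for Gstt1 (adjusted p = 0.00624), −0.74 ± 0.13 for Aldh3a1 (0.02), −0.67 ± 0.12 for Ephx1 (0.02) and −0.71 ± 0.15 for Gstm1 (0.0442). Catalase (Cat), which splits hydrogen peroxide and is named here after its values were seen, rose by 0.40 ± 0.08 (0.0349), and on the exon arrays it differed by −0.08 ± 0.10. For the releasate, which met the same criterion (0.292 to 0.381), 0 members passed in the block fit by limma, as did 0 of all genes. Gstt1 was at −0.44 ± 0.14 there (unadjusted p = 0.00864, adjusted p = 1).

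Nqo1 and Hmox1 did not pass on the gene arrays. Nqo1 read 8.77, 8.74 and 8.60 alone and 8.85, 9.22 and 8.5 with platelets, and its differences from alone were 0.15 ± 0.18 with platelets, 0.24 ± 0.18 with the pellet and 0.39 ± 0.18 with the releasate. The 95% interval of the Nqo1 difference with platelets ran from −0.25 to 0.56. Hmox1 differed by 0.32 ± 0.27, 0.27 ± 0.27 and 0.13 ± 0.27, and Aldh2 by −0.36 ± 0.35, −0.72 ± 0.35 and −0.28 ± 0.35. Ahr differed by 0.00 ± 0.05 with platelets (95% interval −0.11 to 0.12) and Nfe2l2 by −0.05 ± 0.07. The rest of the AHR axis and Keap1 differed by −0.14 to 0.08 in the 3 comparisons.

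The treatments were also tested against each other. No member passed between pellet and releasate by limma (0.00502% of all genes did), or between platelets and releasate (0.0451%, and 0.0351% higher), or between platelets and pellet (0%), with 9, 7 and 0 of 34 at an unadjusted p under 0.05. Of the 9 between pellet and releasate, 8 had lower values with the pellet, from −0.68 for Gstm1 (95% interval −1.25 to −0.12) to −0.17 for Aldh1a7. The others were Ephx1 (−0.64, −1.04 to −0.25), Gstt1 (−0.64, −1.15 to −0.13), Aldh3a1 (−0.58, −1.09 to −0.06), Gsta4 (−0.47), Aldh3b1 (−0.45) and Gsr (−0.24), and Bach1 had a higher value (0.21). Their adjusted p ran from 0.476 for Ephx1 to 0.802 for Aldh3a1. These 9 were picked by their unadjusted p in this comparison. The share of all genes at that cutoff, and of lower ones among them, was not computed. Their direction is therefore not read as a difference between pellet and releasate. Platelets and pellet differed by 0.11 for Gstt1, 0.01 for Aldh3a1 and 0.14 for Ephx1.

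**Figure D5:**
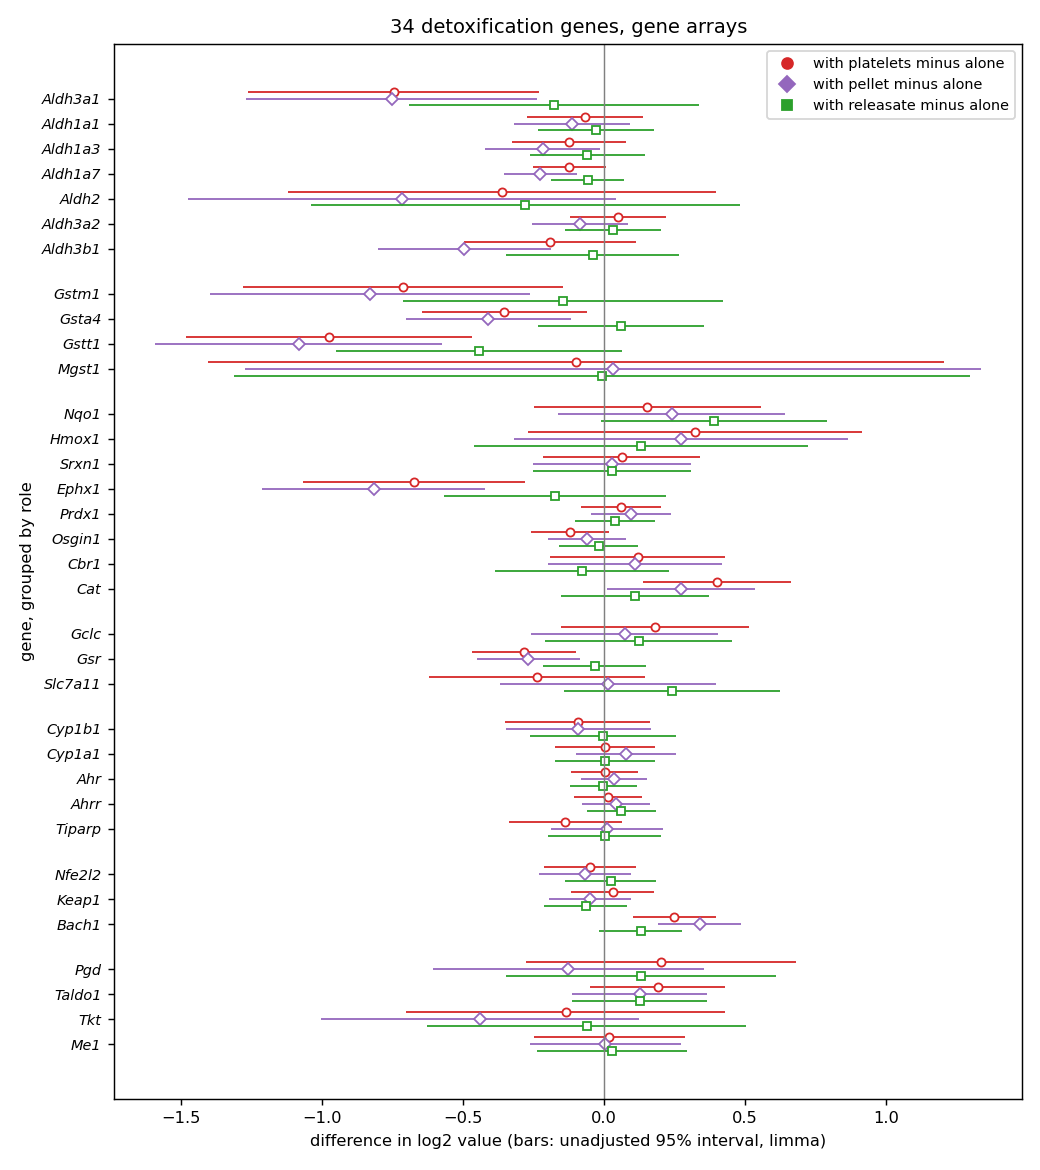
Differences in log2 value from cells alone for the 34 members on the gene arrays in the fit without pairing, with unadjusted 95% intervals. Red circles are platelets, purple diamonds the pellet and green squares the releasate, which share the 3 arrays of cells alone. No symbol is filled, as none passed, and Gstt1 lies lowest with platelets (−0.98) and with the pellet (−1.08).

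The 3 members measured on the gene arrays only did not pass. Gclm, the modifier subunit of glutathione synthesis, differed from alone by 0.29 ± 0.20 with platelets, 0.24 ± 0.20 with the pellet and 0.30 ± 0.20 with the releasate. The thioredoxin reductase Txnrd1 differed by 0.02, −0.01 and 0.11, and the pi-class transferase Gstp1 by −0.07, −0.44 and 0.02. On the exon arrays Gstp1 shares its probe sets with Gstp2, and their values cannot be assigned to 1 gene.

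Of 85 further detoxification genes measured on the exon arrays, 2 rose and 2 fell with platelets against alone, with a median difference of −0.06. This is 4.71% of the list, near the 4.55% of all genes that passed (2.07% higher and 2.47% lower), so the 4 genes are given as single values. The theta-class transferase Gstt3 fell by 1.23 ± 0.22 (adjusted p = 0.00539) and the microsomal transferase Mgst2 by 1.53 ± 0.25 (0.00271). The omega-class transferase Gsto1 rose by 0.42 ± 0.09 (0.0131) and the transporter gene Abcc5 by 0.97 ± 0.18 (0.00657). Gstt3 (−1.56 ± 0.25), Gsto1 (0.46 ± 0.10) and Abcc5 (0.98 ± 0.21) also passed against the mix at lysis. Against the mix the Gsto1 call was lost without mix 4, 5 or 6 (adjusted p = 0.0591 to 0.104) and the Abcc5 call without mix 4 or 6 (0.0794 to 0.109). On the gene arrays 1 of 90 (1.11%) passed with platelets, where 0.667% of all genes did, and 0 with the pellet (0.416%) or the releasate (0%). This was Gsto1, which rose by 0.56 ± 0.10 (adjusted p = 0.0274) and lost its call in 5 of 6 refits with a single array removed (adjusted p = 0.0712 to 0.157, all but platelets 7). Gstt3, Mgst2 and Abcc5 were named after their values were seen.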

How the data were processed

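Expression was measured on Affymetrix mouse exon arrays (13 samples) and gene arrays (12 samples). The authors deposited log2 probe set values, made with Partek 6.4 (exon) or 6.5 (gene) and RMA, per the submitters' processing notes. The options of background correction and summary are not given in the sources used here. Each table has its own normalization, and tests stay within a table. Each gene was represented by its 1-symbol probe set with the highest mean. Groups came from the source names. On the gene arrays, the tag for added platelets names platelets for alone 8 and none for platelets 9, against their source names. The mean of the platelet list was 5.64 in alone 8 (alone 7 and 9: 5.73 and 5.79). It was 6.11 in platelets 9 (platelets 7 and 8: 6.19 and 6.21). Leaving both out gave 0 members in every gene-array comparison. The fit with them also gave 0, so this cannot show a loss of calls. The block fit was not repeated without them.

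Each table was fitted with all its groups in limma 3.58.1 (R 4.3.3), with lmFit and eBayes and Benjamini-Hochberg adjustment over all genes, called at an adjusted p under 0.05. The fit was tested on simulated data. Counts at an unadjusted p under 0.05 are given without the share of all genes at that cutoff, which was not computed. Members, lists and tests were chosen with earlier results of these data known. Named by rule were Aldh3a1, members that passed against alone, 11 index genes (Nqo1 and Hmox1 fall under both) and genes of the wider list that passed in 2 or more comparisons with alone (Gsto1). Other genes are named as examples or ends of a range. Replicate numbers were taken to pair arrays where 3 or more pairs all had r over 0.1, as for platelets and for releasate against alone on the gene arrays. No other comparison met this. No label calls the samples separate cultures. The p-values therefore cover the spread among these samples, which may be technical. The number of arrays limits the precision. Alternatives were renormalization, array weights, probe set summary, a filter on dim genes, a variance trend, blocks and left-out arrays.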

Additional observations from a re-analysis of the deposited data

Results flagged for a closer look

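Among 68 pairs of a member and an exon-array group of 5, 7 had 1 array far from the other 4, where chance flags about 1 in 20 such groups. Alone 5 was low for Prdx1 (11.24, others 11.76 to 11.86) and Cbr1 (6.22, others 6.82 to 6.93), alone 1 for Srxn1 (7.20, others 8.04 to 8.32), and alone 2 was high for Cat (9.72, others 9.57 to 9.61). Platelets 4 was low for Gstt1 (6.61, others 7.40 to 7.69) and Cbr1 (6.13, others 6.78 to 6.98), and platelets 5 was high for Keap1 (7.57, others 7.33 to 7.39).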

How the results depend on the processing

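Array weights gave 15 members with platelets against alone on the exon arrays and 13 against the mix at lysis, in place of 9 and 6, with 9.21% and 23.2% of all genes passing in place of 4.55% and 3.68%. Numbers 4 and above alone gave 0 and 1 (0.221% and 0.368% of all genes). On the gene arrays array weights gave 1 member (Bach1) with platelets and 8 with the pellet (2.33% and 2.51% of all genes). Bach1 was also the 1 member with the pellet after renewed quantile normalization or equal medians (0.502% and 0.386%). The replicate block gave 5 members with platelets (2.28%) and 7 with the pellet (Aldh3a1, Aldh3b1, Gstm1, Gsta4, Gstt1 and Ephx1 lower, Bach1 higher), the latter without meeting the pairing criterion, where 1.8% of all genes passed. Joined with quantile normalization, chosen after seeing the data, it gave 6 and 7 (2.2% and 1.76%). On the exon arrays, where the numbers do not pair all samples, the replicate block gave 10 and 6 (6.98% and 2.48%). Leaving out 1 array gave 7 to 10 members with platelets against alone (3.32% to 4.68% of all genes), 4 to 7 against the mix (2.08% to 4.19%), and 0 to 1 with the pellet (0.0401% to 0.667%; Bach1 without platelets 9, Gstt1 without releasate 9). The cause of these changes was not tested. Over 519 alternative fits of 23 called differences of named genes, 0 changed sign and 80 lost the call. Of 81 differences that did not pass, 37 changed sign in 1 or more alternatives, with sizes of at most 0.26, and 13 passed in 1 or more. No scaling moved the median of all genes by over 0.1.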
